A study of Mus musculus with 8 samples.

Results

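Rab GTPases and the proteins named as their regulators made up 116 of the 47937 genes in the count tables of mouse pro-B cells. They were chosen by name alone: symbols starting with Rab and a digit, Rabgap, Rabgef, Rabep, Tbc1d or Dennd in the authors' deposited table. By role they fell into 52 Rab GTPases, 19 guanine nucleotide exchange factors (GEFs), 33 GTPase-activating proteins (GAPs) and 7 effectors. The rest were 4 noncoding genes named after a neighbouring Rab or regulator gene, and Rab5if, whose symbol alone placed it here. Roles were assigned from symbols, so every coding Tbc1d gene counts as a GAP whether or not it has GAP activity. RNA was sequenced from A-MuLV transformed pro-B cells, that is, early B-lineage cells made immortal by the Abelson retrovirus. All 8 libraries came from EBF1-dTAG_N cells, in which a modified, degron-tagged EBF1 replaces the endogenous B-lineage transcription factor. The 4 control libraries received DMSO and the other 4 received 0.5 µM dTAG-13, a molecule that directs the tagged protein to degradation, each for 6 h per the treatment labels, while the control titles read 0 h. Untagged cells were not analysed here, so effects of dTAG-13 itself and of EBF1 loss cannot be told apart, and the labels do not say how many clones the line represents. The study's design text calls the replicates biological without naming separate cultures, so p-values measure the spread between these libraries.

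Rab proteins are small GTPases that label the membranes of the secretory and endocytic pathways. GEFs, among them the DENN domain family, load a Rab with GTP on its membrane, and the GTP-bound form recruits effectors such as tethers and motors. GAPs with a TBC domain return it to the GDP-bound state. In B-lineage cells this machinery moves receptors such as the pre-B cell receptor and its signalling chains to and from the cell surface.

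The libraries held 28982316 to 38999496 exonic reads. Neither this depth (exact permutation p = 0.2, two-sided) nor the intronic share of whole-gene reads (exact permutation p = 0.714) separated the groups. CPM below denotes exonic counts scaled to the TMM-adjusted library size, and intronic counts are scaled to their own. All 8 pro-B markers examined were detected, and summed to 2074 to 2122 CPM with DMSO and 1262 to 1333 CPM with dTAG-13. Their part in the results below was not tested. Markers of T, erythroid and stromal cells summed to under 1 CPM per list in any library. Those of NK cells summed to 0.104 to 0.261 CPM with DMSO and 0.381 to 0.727 CPM with dTAG-13, with Ncr1 and Gzma at 0, and those of myeloid cells to 0.162 to 0.449 CPM with DMSO and 0.485 to 1.12 CPM with dTAG-13, with Elane and Cd14 at 0. Both ranges were higher with dTAG-13, and their part in the results was not tested. Members together took 0.439% to 0.467% of exonic reads in every library.

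Of the 116 members, 91 passed the filter on low counts and were tested, and in exonic counts 13 were lower and 19 higher after dTAG-13 (edgeR quasi-likelihood test, adjusted p below 0.05). That is 35.2% of the tested members, against 28.3% of all 12889 genes tested. The lower share was 14.3% of members against 14% of all genes, and the higher share 20.9% against 14.3%. The lower share was therefore close to that of all genes. The median log2 change of the tested members was 0.05, and of all genes -0.003. The median absolute log2 change of called members was 0.27. At least 2-fold changes passed for 2 members, Dennd3 and Rab36, both higher, against 2.90% of all tested genes in either direction. Libraries of the groups did not overlap for 36 of the 91 tested members, 30 of them called, against 27.7% of all genes. Exonic counts left 25 members untested, and 18 of these had no exonic read in any library. In a pool of cells, fewer cells with an RNA and less RNA per cell cannot be told apart.

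**Figure D1:**
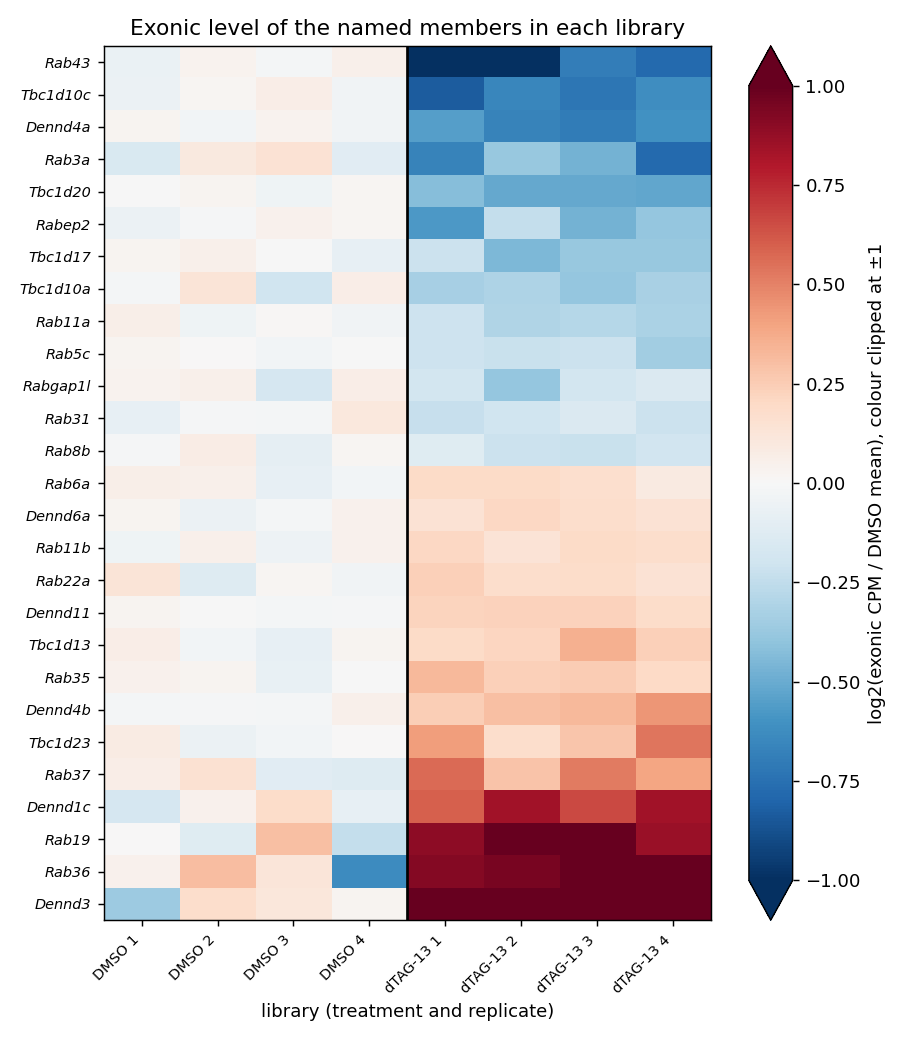
Exonic CPM of the 27 members with the largest called changes (rows) in each of the 8 libraries (columns), as the log2 ratio to the gene's DMSO mean, with colour clipped at 1 in each direction. Blue marks lower and red higher values; the 13 lower members stand at the top and the 14 higher ones below, and Dennd3 is past the clipped end of the scale in all 4 treated libraries.

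Promoter sequences are shown for 4 called members, 2 that fell (Dennd4a, an exchange factor of the DENND4 family, and Rabep2, an effector of endosomal Rabs) and 2 that rose (Dennd1c, an exchange factor, and Tbc1d13, a TBC-domain GAP). Their exonic values follow below. Each sequence holds the 250 bases before the RefSeq transcription start on the gene's strand (RefSeq, GRCm38.p6), and capitals mark CCCNNGGG, the palindromic core of the sequence EBF1 is known to bind.
Dennd4a chr9:64810761-64811010 (+): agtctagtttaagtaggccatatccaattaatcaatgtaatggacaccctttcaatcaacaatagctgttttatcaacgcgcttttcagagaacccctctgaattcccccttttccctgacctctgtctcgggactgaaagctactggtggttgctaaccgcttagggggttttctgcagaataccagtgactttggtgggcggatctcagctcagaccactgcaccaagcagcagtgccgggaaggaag
Rabep2 chr7:126428517-126428766 (+): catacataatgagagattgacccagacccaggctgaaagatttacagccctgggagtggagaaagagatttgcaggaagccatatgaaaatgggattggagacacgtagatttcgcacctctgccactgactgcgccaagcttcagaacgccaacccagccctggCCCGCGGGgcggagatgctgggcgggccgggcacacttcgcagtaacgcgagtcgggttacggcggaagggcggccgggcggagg
Dennd1c chr17:57078499-57078748 (-): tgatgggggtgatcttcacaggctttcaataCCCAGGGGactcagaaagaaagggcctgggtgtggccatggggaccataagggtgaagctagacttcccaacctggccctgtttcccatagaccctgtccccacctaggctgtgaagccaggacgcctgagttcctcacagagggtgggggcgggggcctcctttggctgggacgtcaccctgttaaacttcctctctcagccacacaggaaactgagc
Tbc1d13 chr2:30133496-30133745 (+): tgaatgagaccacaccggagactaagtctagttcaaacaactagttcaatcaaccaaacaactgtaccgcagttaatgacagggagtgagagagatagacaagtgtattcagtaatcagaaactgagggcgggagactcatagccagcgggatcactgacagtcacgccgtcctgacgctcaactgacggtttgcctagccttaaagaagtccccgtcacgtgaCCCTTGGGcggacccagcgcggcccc
The core began 85 bases before the start in Rabep2, 219 bases before it in Dennd1c and 26 bases before it in Tbc1d13, and the Dennd4a window held none. These 4 do not stand for all called members. The windows of Rab43, Rab19 and Tbc1d20, which are not shown and changed more than Rabep2 and Tbc1d13, held no core either. The GENCODE exons overlap the last 16 bases of the Dennd1c window and the last 8 of the Rabep2 window. Of the 95 members with an entry in the promoter table, 19 held CCCNNGGG in at least 1 such window (20%), against 13.4% of all 27025 genes in the table. Among tested genes with an entry the shares lay closer together, 19.7% of 76 members and 17.7% of 8605 genes (of 12835 tested symbols). It was present for 2 of 11 lower members, 6 of 16 higher members and 7 of 49 members that did not pass, each out of those with an entry, to be read against the 17.7% of tested genes. These are matches of letters on both strands, not binding sites.

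Rab GTPases of several routes changed, with 6 of 39 tested lower (15.4%, against 14% of all genes) and 8 higher (20.5%, against 14.3%) and a median log2 change of 0.05. Among the 6 that fell, Rab43, which acts in transport between endoplasmic reticulum (ER) and Golgi (ENSMUSG00000030055.16, chromosome 6, 87788853 to 87812164, minus strand, GRCm38), measured 17.1, 18.3, 17.6 and 18.5 CPM with DMSO and 8.76, 7.96, 11.1 and 10.4 CPM with dTAG-13. All dTAG-13 libraries lay well below all controls, a 1.87-fold fall with a log2 change of -0.91 ± 0.09 (SE, edgeR adjusted p = 1.0e-08). Of its annotated exon bases 75.35% also belong to Gm45140, a gene on the same strand that measured 0.733 and 0.439 CPM on average in DMSO and dTAG-13. How reads shared by both genes were assigned was not given in the sources used here, so the level of Rab43 is uncertain. Rab3a, a GTPase of regulated exocytosis, measured 8.22, 9.74, 10.1 and 8.44 CPM with DMSO and 5.74, 7.02, 6.57 and 5.32 CPM with dTAG-13. Its groups did not overlap and the log2 change was -0.56 ± 0.11 (SE, edgeR adjusted p = 3.5e-04).

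Endosomal GTPases moved in both directions. Rab5c of the early endosome had the highest exonic level per kb of all members' GTPases and measured 225, 222, 216 and 221 CPM with DMSO and 192, 189, 190.4 and 174 CPM with dTAG-13. Every treated library was below every control, with a log2 change of -0.25 ± 0.04 (SE, edgeR adjusted p = 9.8e-06). Its relatives Rab5a and Rab5b did not pass, with log2 changes of -0.02 and 0.01 (edgeR adjusted p = 0.819 and 0.901). Rab11a, which directs recycling from endosomes to the plasma membrane, measured 54.5, 50.8, 52.7 and 51.1 CPM with DMSO and 45.2, 42.4, 42.8 and 42.04 CPM with dTAG-13. It fell by 0.28 on the log2 scale with no overlap between groups (edgeR adjusted p = 1.9e-05). Rab11b, its close relative, went the other way: 126, 134, 125 and 133 CPM with DMSO and 149, 143, 148 and 146 CPM with dTAG-13. All treated libraries lay above the controls (log2 change 0.18 ± 0.04 SE, edgeR adjusted p = 6.1e-04). Rab31, a GTPase of transport between Golgi and endosomes, measured 33.9, 35.5, 35.4 and 38.6 CPM with DMSO and 30.6, 31.2, 32.4 and 30.8 CPM with dTAG-13, a log2 change of -0.20 (edgeR adjusted p = 0.00478). Rab22a, its nearest relative, measured 51.97, 43.4, 48.2 and 46.2 CPM with DMSO and 55.97, 53.7, 53.9 and 52.5 CPM with dTAG-13, and it rose by 0.19 (edgeR adjusted p = 0.00454). Groups of both genes were separate, but neither call held when exonic and intronic reads were counted together (edgeR adjusted p = 0.123 for Rab31 and 0.0688 for Rab22a).

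Of the GTPases that serve the plasma membrane, Rab35, which recycles cargo to the surface and acts in cell division, measured 97.3, 96.6, 90.04 and 94.6 CPM with DMSO and 119, 112, 113 and 108 CPM with dTAG-13. It rose in all 4 treated libraries (log2 change 0.26 ± 0.04 SE, edgeR adjusted p = 1.1e-05). Rab8b, which acts in transport to the surface, measured 105, 112, 99.9 and 108 CPM with DMSO and 97.9, 91.5, 90.8 and 93.00 CPM with dTAG-13. It fell slightly, with separate groups (-0.19 ± 0.04 SE, edgeR adjusted p = 8.5e-04), whereas Rab8a had a log2 change of 0.05 that did not pass (edgeR adjusted p = 0.382). Among the secretory GTPases Rab37, known from granule exocytosis, measured 7.60, 8.05, 6.71 and 6.63 CPM with DMSO and 10.7, 8.83, 10.4 and 9.55 CPM with dTAG-13. It rose 1.37-fold without overlap (edgeR adjusted p = 0.00137).

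In the ER and Golgi group, 4 of 12 tested GTPases rose and 1, Rab43, fell (33.3% and 8.33%, against 14.3% and 14% of all genes). Rab6a, which serves retrograde transport at the Golgi, measured 55.6, 55.2, 50.4 and 52.4 CPM with DMSO and 60.9, 61.03, 59.98 and 56.8 CPM with dTAG-13. That is a small rise with separate groups (0.16 ± 0.04 SE, edgeR adjusted p = 0.00628), and 19.0% of its exon bases are shared with Mrpl48 on the opposite strand. Rab1b, needed for transport from ER to Golgi, rose by 0.12 (edgeR adjusted p = 0.0153), and its call was lost when DMSO replicate 3 or dTAG-13 replicate 2 was left out (edgeR adjusted p = 0.0578 and 0.054) and in whole-gene counts (0.0529). The remaining 2 were low. Rab19 (ENSMUSG00000029923.4, chromosome 6, 39381175 to 39390380, plus strand) measured 2.97, 2.73, 3.65 and 2.51 CPM with DMSO and 5.52, 6.15, 6.57 and 5.40 CPM with dTAG-13. It rose 1.99-fold with no overlap (edgeR adjusted p = 6.5e-06). Rab36, known from the Golgi and late endosomes, measured 0.518, 0.622, 0.548 and 0.325 CPM with DMSO and 0.952, 0.970, 1.17 and 1.89 CPM with dTAG-13. At this depth its change is imprecise, 1.31 ± 0.33 (SE, edgeR adjusted p = 0.00343), though all treated libraries exceeded the controls. Rab36 was counted in the ER and Golgi group alone. None of the 5 tested GTPases listed under late endosomes and lysosomes passed in exonic counts, against 28.3% of all genes. Of these 5, 4 were tested in intronic counts, with 0 called, and 1 had an unadjusted p below 0.05 in exonic counts. DESeq2 called 1 of them in exonic counts, Rab7, at an adjusted p of 0.0445.

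**Figure D2:**
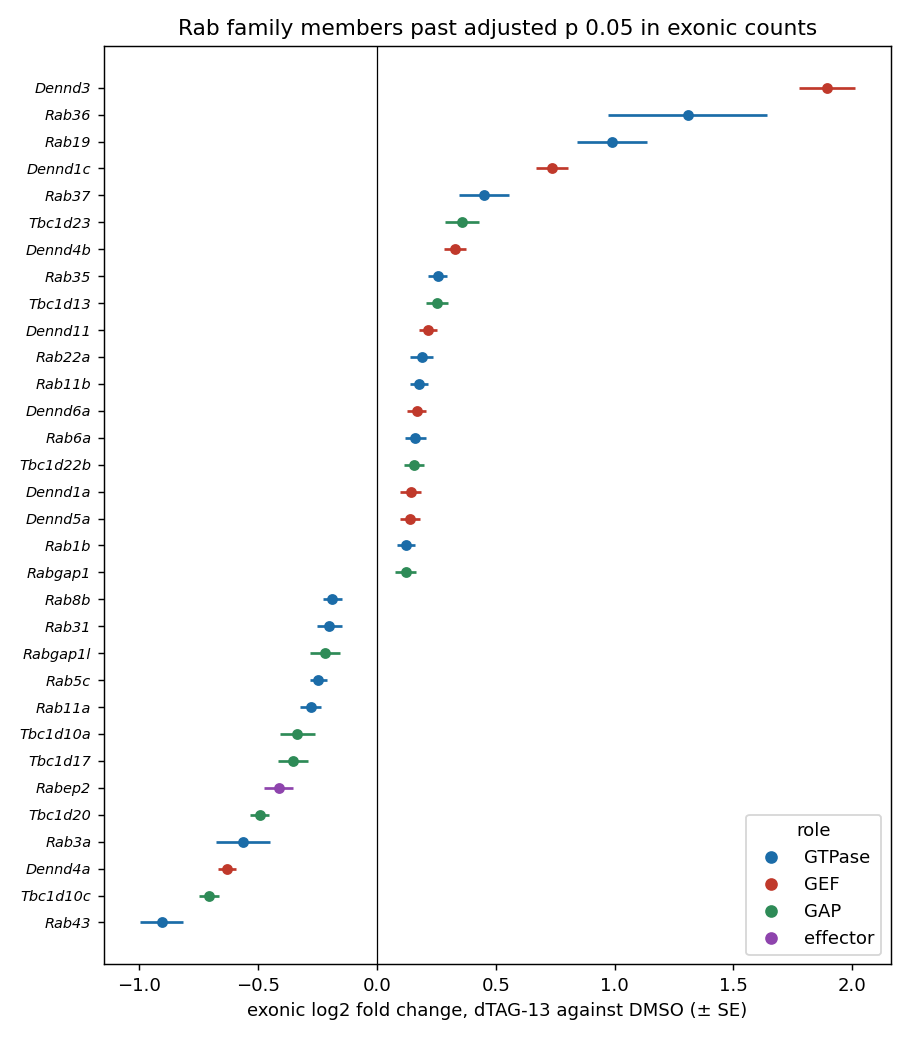
Exonic log2 fold change with its standard error (x axis) for the 32 members with an adjusted p below 0.05 (y axis), coloured by role. Values run from -0.91 for Rab43 to 1.89 for Dennd3, and most lie within 0.5 of 0.

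Levels per kb of annotated exon ordered the 52 GTPases. In DMSO Rab5c stood first at 101 ± 1.61 exonic CPM per kb, followed by Rab7 at 55.9 ± 0.725, Rab1b at 48.2 ± 1.30, Rab10 at 44.8 ± 1.89 and Rab35 at 33.6 ± 1.16 (SD, n = 4). Those 5 kept these ranks in dTAG-13, with 84.9 ± 3.77, 59.8 ± 3.01, 52.5 ± 1.71, 44.3 ± 1.80 and 40.05 ± 1.52 CPM per kb. With DMSO the next 5, Rab1a (25.4 ± 0.790), Rab8a (24.1 ± 0.547), Rab8b (22.4 ± 1.07), Rab11b (21.1 ± 0.785) and Rab2a (20.8 ± 0.649), each differed from the next by less than their SDs added together. Rab7, the GTPase of late endosomes, and Rab10, of transport to the plasma membrane, were the most abundant that did not pass. Rab7 measured 147, 148, 145 and 144 CPM with DMSO and 162, 156, 161 and 145 CPM with dTAG-13, where dTAG-13 replicate 4 lay within the range of the controls (edgeR adjusted p = 0.0642). Rab10 measured 161, 164, 149.7 and 154 CPM with DMSO and 163, 158, 149 and 152 CPM with dTAG-13 with overlapping groups (edgeR adjusted p = 0.838). Lower ranks moved more, with Rab43 going from rank 28 to 33 and Rab19 from 32 to 27. Summed over all GTPases, exonic RNA was 1958 ± 35.1 CPM with DMSO and 1987 ± 45.2 CPM with dTAG-13 (SD over 4 libraries).

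**Figure D3:**
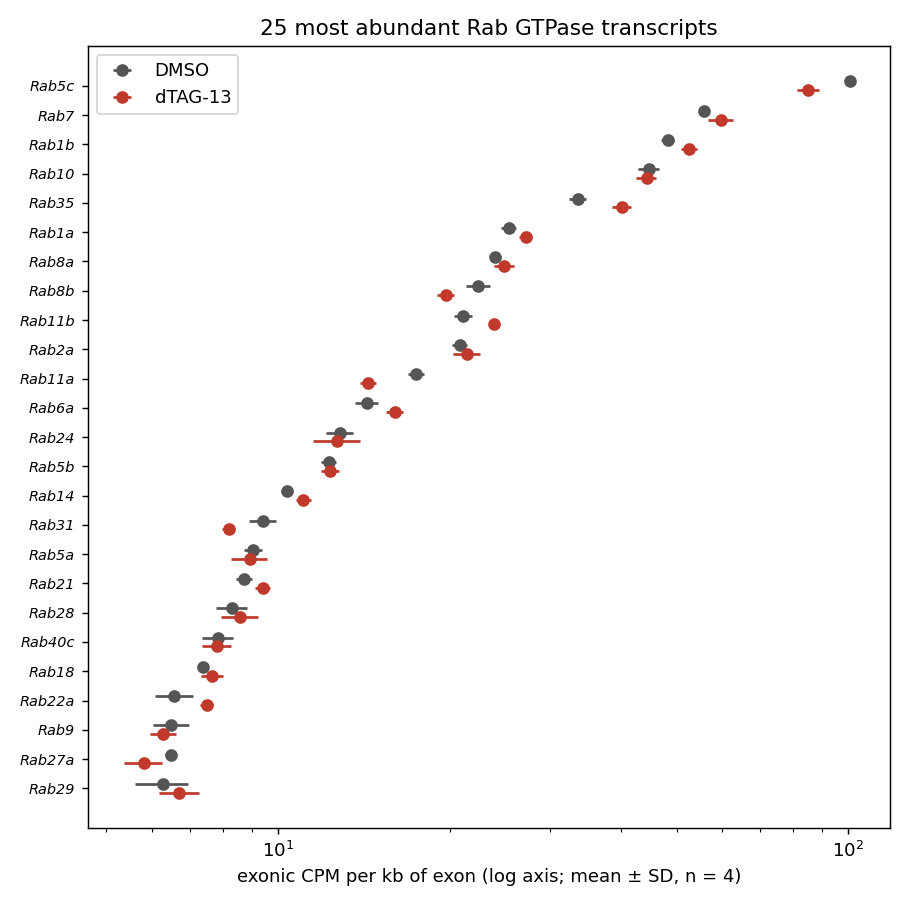
Exonic CPM per kb of exon (x axis, log scale; mean and SD of 4 libraries) for the 25 most abundant Rab GTPases (y axis) in DMSO (grey) and dTAG-13 (red). Rab5c is highest in both groups, and most pairs of points lie close together.

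Of 16 tested exchange factors 7 were higher (against 14.3% of all genes) and 1 lower (against 14%), with a median log2 change of 0.09. Their summed exonic RNA, untested ones included, did not rise with these calls. It was 1019 ± 21.6 CPM with DMSO and 1005 ± 18.3 CPM with dTAG-13 (SD over 4 libraries). Dennd3, an exchange factor of Rab12 (ENSMUSG00000036661.13, chromosome 15, 73512560 to 73572242, plus strand), had the largest change of all tested members. It measured 2.66, 3.87, 3.70 and 3.49 CPM with DMSO and 12.02, 14.2, 12.6 and 12.4 CPM with dTAG-13. Every treated library lay far above the highest control, and the rise was 3.72-fold (log2 change 1.89 ± 0.12 SE, edgeR adjusted p = 5.7e-13). Dennd1c, an exchange factor of the DENND1 family (ENSMUSG00000002668.7, chromosome 17, 57065905 to 57078514, minus strand), measured 25.4, 29.3, 32.3 and 26.96 CPM with DMSO and 43.2, 51.1, 45.2 and 50.9 CPM with dTAG-13. It rose 1.67-fold in fully separate groups (edgeR adjusted p = 9.7e-10). The only exchange factor that fell was Dennd4a (ENSMUSG00000053641.8, chromosome 9, 64811340 to 64919667, plus strand): 245, 236, 246 and 234 CPM with DMSO and 164, 151, 148 and 158 CPM with dTAG-13. No treated library came near the controls, with a log2 change of -0.63 ± 0.04 (SE, edgeR adjusted p = 6.2e-13).

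Other exchange factors rose by small amounts. Dennd4b, a relative of Dennd4a, measured 48.6, 48.8, 48.5 and 50.97 CPM with DMSO and 58.3, 60.7, 61.6 and 66.8 CPM with dTAG-13. It was higher in every treated library (0.33 ± 0.05 SE, edgeR adjusted p = 2.2e-06). Dennd11 measured 69.7, 68.2, 67.5 and 67.7 CPM with DMSO and 79.5, 79.96, 80.3 and 77.3 CPM with dTAG-13, and Dennd6a, an exchange factor of Rab14, measured 62.4, 58.9, 60.5 and 63.01 CPM with DMSO and 67.7, 70.5, 69.2 and 67.6 CPM with dTAG-13. Both rose with separate groups, by 0.22 and 0.17 (edgeR adjusted p = 6.8e-05 and 0.00204). Dennd1a and Dennd5a each rose by 0.14 (edgeR adjusted p = 0.0165 and 0.0138). Their calls were lost without DMSO replicate 2 (edgeR adjusted p = 0.0749 and 0.0652), and that of Dennd1a also without DMSO replicate 3 or dTAG-13 replicate 4 (0.0517 and 0.069) and in whole-gene counts (0.818). Of those that did not pass, the most abundant per kb were Dennd2d and Dennd4c. Dennd2d measured 77.1, 82.2, 83.5 and 77.8 CPM with DMSO and 68.9, 87.5, 82.2 and 79.3 CPM with dTAG-13, and Dennd4c 77.5, 68.6, 75.9 and 80.8 CPM with DMSO and 77.05, 69.9, 71.9 and 71.9 CPM with dTAG-13. Groups of both overlapped (edgeR adjusted p = 0.903 and 0.393). Dennd2d shares 11.2% of its exon bases with Cept1 on the opposite strand.

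GAPs were lower in 5 and higher in 4 of 27 tested, and these 18.5% and 14.8% lie near the 14% and 14.3% of all genes. Tbc1d10c, also called carabin, a GAP known as a brake on lymphocyte signalling (ENSMUSG00000040247.5, chromosome 19, 4183411 to 4191284, minus strand), measured 202, 212, 220.1 and 205 CPM with DMSO and 118, 133, 127 and 136 CPM with dTAG-13. It fell 1.63-fold, with all treated libraries far below the controls (-0.71 ± 0.04 SE, edgeR adjusted p = 5.1e-13). Tbc1d20, the GAP of Rab1, measured 105, 106, 101 and 106 CPM with DMSO and 77.8, 73.4, 73.2 and 72.9 CPM with dTAG-13. The groups were separate (-0.49 ± 0.04 SE, edgeR adjusted p = 7.6e-11). Tbc1d17 measured 29.2, 29.7, 28.6 and 27.1 CPM with DMSO and 24.7, 20.97, 21.99 and 22.03 CPM with dTAG-13 and Tbc1d10a 19.9, 22.03, 17.6 and 21.1 CPM with DMSO and 16.1, 16.3, 15.4 and 16.1 CPM with dTAG-13. They fell by 0.35 and 0.33 on the log2 scale without overlap (edgeR adjusted p = 6.1e-05 and 9.3e-04). Tbc1d17 shares 35.2% of its exon bases with Il4i1 on the opposite strand. Rabgap1l measured 33.4, 33.8, 29.1 and 34.3 CPM with DMSO and 28.8, 24.95, 28.7 and 29.6 CPM with dTAG-13. Its groups overlapped, since DMSO replicate 3 lay below dTAG-13 replicate 4. It changed by -0.22 (edgeR adjusted p = 0.00918), and the call was lost without dTAG-13 replicate 2 (edgeR adjusted p = 0.0561).

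Tbc1d23, which tethers endosome-derived vesicles at the Golgi, and Tbc1d13, a GAP of Rab35, had the largest rises among the 4 higher genes grouped as GAPs by symbol. Tbc1d23 measured 22.7, 20.6, 21.1 and 21.6 CPM with DMSO and 28.7, 24.3, 25.96 and 31.2 CPM with dTAG-13 and Tbc1d13 47.4, 44.4, 42.8 and 46.1 CPM with DMSO and 51.6, 52.4, 57.8 and 53.3 CPM with dTAG-13. All treated libraries exceeded all controls for both (log2 changes 0.36 ± 0.07 SE, edgeR adjusted p = 2.4e-04 and 0.25 ± 0.05 SE, edgeR adjusted p = 1.5e-04). Tbc1d22b rose by 0.16 (edgeR adjusted p = 0.00417). The rise of Rabgap1, 0.12, was at the threshold (edgeR adjusted p = 0.0485) with overlapping groups. It was lost without any of DMSO replicates 1, 2 or 3 (edgeR adjusted p = 0.0681, 0.128 and 0.146) or dTAG-13 replicates 1 or 3 (0.118 and 0.116), and in whole-gene counts (0.917). DESeq2 did not call it either (adjusted p = 0.0564). Tbc1d10b and Tbc1d9b were the most abundant per kb that did not pass. Tbc1d10b measured 70.5, 77.2, 70.6 and 74.7 CPM with DMSO and 83.3, 72.8, 80.5 and 73.8 CPM with dTAG-13, and Tbc1d9b 79.8, 89.8, 90.6 and 81.5 CPM with DMSO and 88.1, 90.01, 92.7 and 89.1 CPM with dTAG-13, both with overlap (edgeR adjusted p = 0.206 and 0.226). Summed exonic RNA of the 33 GAPs was 1284 ± 19.9 CPM with DMSO and 1197 ± 15.6 CPM with dTAG-13 (SD over 4 libraries), and Tbc1d10c alone went from 209.7 to 129 CPM on average.

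Rabep2 was the only one of 6 tested effectors that passed (16.7% lower, against 14% of all genes). This relative of rabaptin-5, which Rabep1 encodes, acts with Rab GTPases of the early endosome. The gene, at chromosome 7, 126428759 to 126449245, measured 38.4, 39.8, 41.2 and 40.6 CPM with DMSO and 26.8, 33.9, 28.9 and 30.5 CPM with dTAG-13. All treated libraries were below the controls (-0.41 ± 0.06 SE, edgeR adjusted p = 4.1e-06), and 14.3% of its exon bases are shared with Atp2a1 on the opposite strand. Rabep1 measured 57.2, 58.2, 57.1 and 54.9 CPM with DMSO and 53.7, 55.6, 56.3 and 52.8 CPM with dTAG-13 and Rabepk 17.1, 16.4, 16.3 and 13.7 CPM with DMSO and 14.2, 15.1, 14.4 and 15.2 CPM with dTAG-13. Both had overlapping groups and did not pass (edgeR adjusted p = 0.349 and 0.357). The recycling effectors Rab11fip1 and Rab11fip2 had log2 changes of -0.13 and 0.11 that did not pass (edgeR adjusted p = 0.0648 and 0.489). Of the noncoding genes 2 were tested, Rab10os and Rab26os, with no call (edgeR adjusted p = 0.408 and 0.461). Reads of Rab10 and Rab10os share 143 exon bases on opposite strands, and the strand setting of the counting was not given in the sources used here. Among all 59 members that did not pass, the 52 above 5 CPM in either group had log2 changes between -0.24 and 0.18.

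Genes known to act on Rab35 are spread over these roles, and they were gathered after their values were seen. Rab35 and its exchange factors Dennd1c and Dennd1a rose (0.26, 0.74 and 0.14 on the log2 scale), while Dennd1b was at -0.0043 (edgeR adjusted p = 0.958). Of the GAPs reported to act on it, Tbc1d10c and Tbc1d10a fell (-0.71 and -0.33), Tbc1d13 rose (0.25) and Tbc1d10b was at 0.08 (edgeR adjusted p = 0.206). Rab12, on which Dennd3 acts, did not pass, with a log2 change of 0.11 (edgeR adjusted p = 0.32).

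Close relatives within the family were compared by their ratio within each library. Both genes were tested for 26 of 45 listed pairs, and for 18 of them the log2 ratio separated the groups (two-sided exact permutation p = 0.0286, the smallest that 4 against 4 libraries allow; adjusted p = 0.0413). No such share was computed for pairs of unrelated genes, and single genes separated the groups in 27.7% of all tested, so nothing particular to relatives is read from this count. Several pairs share a gene, such as those among Tbc1d10a, Tbc1d10b and Tbc1d10c, so the pairs are not independent. Opposite calls were seen in 4 pairs. Dennd4a over Dennd4b had log2 ratios of 2.34, 2.27, 2.34 and 2.195 with DMSO and 1.49, 1.31, 1.26 and 1.24 with dTAG-13. All treated ratios were lower, the mean having decreased by 0.96 on average, and Dennd4a made up 82.99% ± 0.670 with DMSO and 71.5% ± 1.60 with dTAG-13 (SD over 4 libraries) of the reads of the pair. Rab11a over Rab11b had log2 ratios of -1.202, -1.40, -1.25 and -1.38 with DMSO and -1.72, -1.75, -1.78 and -1.80 with dTAG-13. Rab11a thus made up 28.8% ± 1.38 with DMSO and 22.7% ± 0.416 with dTAG-13 (SD over 4 libraries) of the reads of its pair, without overlap between groups. Rab22a over Rab31 changed by 0.39 and Rabgap1 over Rabgap1l by 0.34, where single calls of Rabgap1l and Rabgap1 depended on certain libraries.

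The other 14 pairs that passed had no opposite calls. The ratio of Tbc1d10b to Tbc1d10c changed by 0.79, and Tbc1d10b made up 25.9% ± 1.14 with DMSO and 37.7% ± 2.98 with dTAG-13 (SD over 4 libraries) of that pair's reads. Rab3a against Rab3d changed by -0.87, Dennd1b against Dennd1c by -0.74, Rabep1 against Rabep2 by 0.36 and Rab8a against Rab8b by 0.24. Rab5c lost share to both relatives, with ratios that changed by 0.22 for Rab5a and 0.26 for Rab5b against Rab5c. For Rab1a and Rab1b (-0.02, exact permutation p = 0.629) and Rab3gap1 and Rab3gap2, the 2 chains of 1 complex (change 0.004, exact permutation p = 0.971), the groups overlapped. An adjusted p below 0.05 was reached here only because many pairs had the smallest p. Without DMSO replicate 1, 3 or 4, 14 pairs had an unadjusted p below 0.05 and none passed, while all 18 pairs kept their direction.

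Shared sequence bears on these ratios, since a read that lies wholly in a run common to both genes cannot be placed. The longest identical runs in coding sequence (GENCODE vM21 transcripts, GRCm38, 5′ to 3′, lower case throughout) are shown for 4 pairs of GTPases.
Rab1a chr11:20224385-20224422 (+) and Rab1b chr19:5100743-5100780 (-): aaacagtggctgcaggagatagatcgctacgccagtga
Rab5a chr17:53500388-53500422 (+) and Rab5b chr10:128681433-128681467 (-): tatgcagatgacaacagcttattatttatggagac
Rab5b chr10:128683283-128683305 (-) and Rab5c chr11:100718519-100718541 (-): gtcaagtttgagatctgggacac
Rab11a chr9:64728339-64728352 (-) and Rab11b chr17:33749887-33749900 (-): agcaagagtaccat
The runs measure 38, 35, 23 and 14 bases, and the run of Rab1a and Rab1b was the longest of the 26 pairs. Read length was not given in the sources used here.

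**Figure D4:**
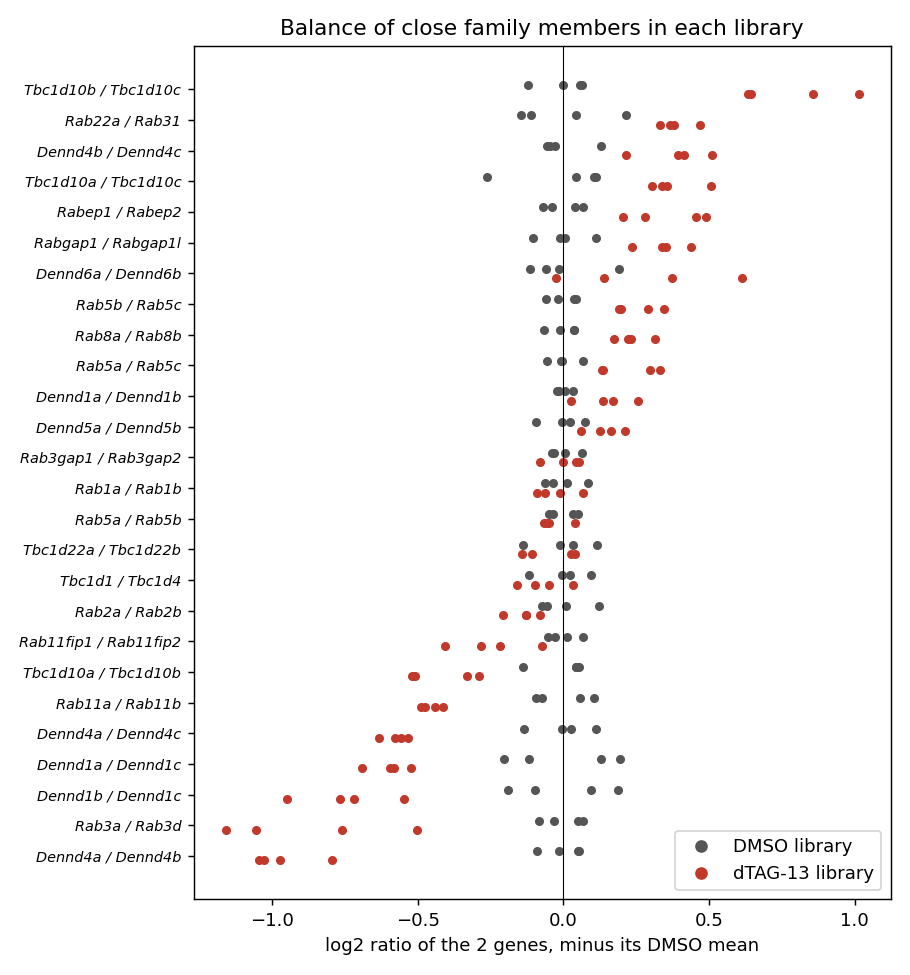
Log2 ratio of exonic CPM (0.1 CPM added) of 2 related genes in each library, minus the mean of the DMSO libraries (x axis), for 26 pairs (y axis), with DMSO in grey and dTAG-13 in red. Red points lie fully to 1 side of the grey ones for 18 pairs, among them Dennd4a over Dennd4b at the bottom and Tbc1d10b over Tbc1d10c at the top.

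Intronic reads, the whole-gene count minus the exonic count which include those of unspliced RNA, were lower for 10 and higher for 8 of 89 tested members (against 8.50% lower and 8.26% higher, together 16.8%, of all 11229 genes tested). Of the 18 members called in intronic counts 14 were also called in exonic counts, and those 14 moved in the same direction. Conversely, of 32 members called in exonic counts and tested in both, 18 were called in exonic counts only. No such shares over all genes are given here. Rab43 had 743, 748, 668 and 744 CPM with DMSO and 483, 369, 450.5 and 342 CPM with dTAG-13 of intronic reads. It fell by 0.82 on the log2 scale (edgeR adjusted p = 1.3e-07). Intronic CPM have the intronic library size as their base, so this level is not compared with the exonic one. Gm45140 overlaps 23304 bases of Rab43 on the same strand, so the intronic level of Rab43 is uncertain too. Tbc1d10c measured 241, 272, 266 and 249 CPM with DMSO and 143, 152, 157 and 162 CPM with dTAG-13 of intronic reads, and Dennd4a 503, 469, 485 and 488 CPM with DMSO and 312, 345, 299.7 and 328 CPM with dTAG-13. Both fell in fully separate groups (-0.74 and -0.60; edgeR adjusted p = 3.5e-09 and 1.2e-07). Tbc1d20 measured 79.4, 60.2, 68.4 and 65.5 CPM with DMSO and 42.3, 51.6, 49.04 and 46.8 CPM with dTAG-13 (-0.53, edgeR adjusted p = 1.2e-04).

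Among the rises, intronic Dennd3 reads were 3.86, 8.70, 9.96 and 11.2 CPM with DMSO and 29.3, 34.1, 33.7 and 26.8 CPM with dTAG-13. All treated libraries were far above the controls (log2 change 1.85 ± 0.19 SE, edgeR adjusted p = 6.7e-08), close to the exonic change of 1.89. Intronic Dennd1c reads were 39.7, 41.5, 43.1 and 38.97 CPM with DMSO and 66.9, 77.1, 80.2 and 73.6 CPM with dTAG-13, and those of Rab19 were 4.88, 3.81, 4.98 and 3.91 CPM with DMSO and 8.60, 9.74, 5.79 and 9.64 CPM with dTAG-13. Neither overlapped between groups (0.87 and 0.94; edgeR adjusted p = 1.7e-08 and 0.00335). Rab37 measured 6.01, 7.15, 4.29 and 6.35 CPM with DMSO and 7.15, 9.19, 14.8 and 8.93 CPM with dTAG-13 and Rab35 28.02, 28.2, 36.4 and 37.9 CPM with DMSO and 38.2, 44.2, 43.8 and 43.3 CPM with dTAG-13. The groups of Rab35 did not overlap, while the highest control and the lowest treated library of Rab37 were both at 7.15 CPM as rounded. The edgeR adjusted p was 0.0196 for Rab37 and 0.0165 for Rab35. Rab37 lost its intronic call when DMSO replicate 3 or dTAG-13 replicate 3 was left out (edgeR adjusted p = 0.0748 and 0.147). Leaving out DMSO replicate 1, DMSO replicate 2 or dTAG-13 replicate 2 ended that of Rab35 (0.0522, 0.0603 and 0.051).

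Called in intronic but not in exonic counts were Tbc1d16, Tbc1d31, Tbc1d14 and Rab4b. Tbc1d16 had 27.7, 24.7, 24.98 and 21.2 CPM with DMSO and 16.8, 19.01, 18.3 and 18.1 CPM with dTAG-13 of intronic reads, all treated libraries lower (-0.44, edgeR adjusted p = 0.00921). Its exonic values were 10.4, 10.02, 11.2 and 9.76 CPM with DMSO and 8.68, 9.03, 10.4 and 7.002 CPM with dTAG-13 with overlap (edgeR adjusted p = 0.106). The other 3 had intronic log2 changes of -0.24, 0.27 and 0.37. Of the annotated exon bases of Rab4b 64.97% also belong to Gm21983 on the same strand, so the level of Rab4b is uncertain. A test of the difference between exonic and intronic change passed for 0 of 89 members (edgeR interaction test, 6 at an unadjusted p below 0.05), against 0.319% of 10026 genes. The smallest unadjusted p was 0.018, for Rab31, with an exonic minus intronic change of -0.21.

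**Figure D5:**
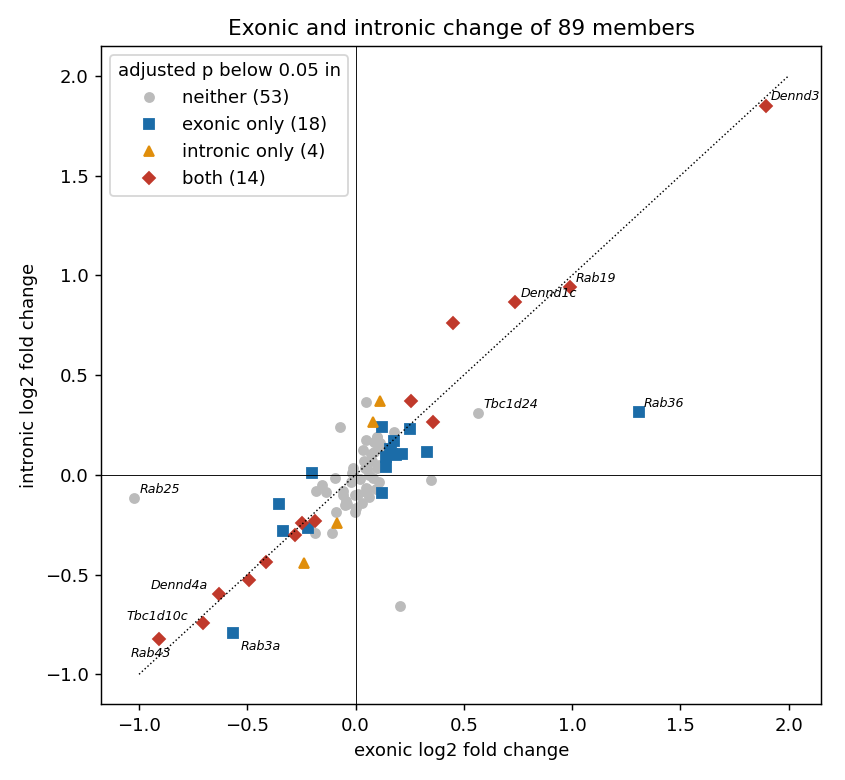
Exonic (x axis) against intronic (y axis) log2 fold change of the 89 members tested in both, with the line of equal change dotted and the symbol showing which test passed. The 14 members called in both lie along that line, from Rab43 at the lower left to Dennd3 at the upper right.

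Further genes of the Rab cycle that the name rule does not catch were taken from a list of 110 found in the tables. Of 89 tested, 7 were lower and 18 higher in exonic counts (28.1% called, against 28.3% of all genes), with a median log2 change of 0.05. The lower count was 4 without DMSO replicate 2 or without dTAG-13 replicate 2. Chm, which presents Rabs for prenylation, rose by 0.19 (edgeR adjusted p = 0.00637). Among GEFs outside the DENN names and subunits of GEF complexes, such as the Trappc genes, 30 were tested. Of these, 6 rose and 1 fell (20% and 3.33%, against 14.3% and 14% of all genes). Madd, an exchange factor of Rab3 and Rab27, measured 102 ± 3.61 CPM with DMSO and 132 ± 5.45 CPM with dTAG-13, and Sbf1 215 ± 2.01 CPM with DMSO and 244 ± 6.36 CPM with dTAG-13 (SD over 4 libraries). They rose by 0.38 and 0.18 (edgeR adjusted p = 2.1e-08 and 1.9e-04), while Ankrd27, an exchange factor of Rab21, changed by -0.21 (edgeR adjusted p = 7.7e-04).

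Effectors on that list were lower in 5 and higher in 7 of 36 tested (13.9% and 19.4%, against 14% and 14.3% of all genes). Plekhm1 and Osbpl1a, effectors of Rab7, both fell. Plekhm1 measured 104 ± 2.30 CPM with DMSO and 77.1 ± 1.96 CPM with dTAG-13, and Osbpl1a 27.7 ± 2.35 CPM with DMSO and 18.5 ± 0.656 CPM with dTAG-13 (SD over 4 libraries; log2 changes -0.43 and -0.58, edgeR adjusted p = 7.3e-10 and 9.7e-08). Fyco1, also an effector of Rab7 and chosen after its values were seen, rose by 0.28 (edgeR adjusted p = 0.00508). The Rab6 effectors Erc1 and Gcc2 changed by -0.77 and -0.17 (edgeR adjusted p = 7.3e-08 and 0.0209). The call of Gcc2 was lost when DMSO replicate 2, DMSO replicate 4 or dTAG-13 replicate 2 was left out (edgeR adjusted p = 0.0897, 0.0939 and 0.107). Among those that rose, Lrrk2, a kinase that phosphorylates Rab proteins, measured 69.2 ± 3.31 CPM with DMSO and 85.8 ± 3.98 CPM with dTAG-13 (SD over 4 libraries, edgeR adjusted p = 2.7e-06). Rilpl2 and Optn, a binder of Rab8, rose by 0.51 and 0.89 (edgeR adjusted p = 1.9e-05 and 2.7e-04). Of 6 further GAPs tested, 1 rose (16.7%, against 14.3% of all genes), Evi5 by 0.95 ± 0.30 (SE, edgeR adjusted p = 0.0174). Its level was low, with means of 0.678 CPM with DMSO and 1.33 CPM with dTAG-13, so the change is imprecise. The Rab-like group of that list also held Nkiras1 and Nkiras2, which are Ras-like rather than Rab-like. Of its 7 tested genes Ift22 and Nkiras2 rose (0.19 and 0.25, edgeR adjusted p = 0.0373 and 5.5e-04) and Ift27 fell (-0.20, edgeR adjusted p = 0.0393). That is 28.6% higher and 14.3% lower, against 14.3% and 14% of all genes.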

How the data were processed

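Stranded total RNA-seq libraries, depleted of ribosomal RNA, were made from 4 DMSO and 4 dTAG-13 samples per the labels. The authors deposited raw counts of exonic and of whole-gene reads per gene, and a DESeq2 table of log2 fold changes with p-values. Per the submitters' processing notes, STAR 2.7.4a, featureCounts (Subread 2.0.0) and mm10/GRCm38.p4 were used; the strand setting and read length are not given in the sources used here. Depth was 28982316 to 38999496 exonic reads per library. Of these, 25.7% to 29.3% fell on Gm26917 and Gm42418, genes that overlap ribosomal RNA.

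Intronic counts are whole-gene minus exonic counts. Genes were filtered (filterByExpr, minimum count 10, total 15), scaled by TMM and tested with edgeR 4.0.16 (R 4.3.3) quasi-likelihood F tests, with Benjamini-Hochberg adjustment over all genes and a threshold of 0.05; exonic and intronic columns were compared in an interaction model with library as a block. Tests were tried on simulated data. Log2 ratios of relatives (0.1 CPM added) were tested by exact permutation. Alternatives were DESeq2 1.42.0, RLE scaling, other filters, whole-gene counts, a replicate block, removal of Gm26917 and Gm42418, and leaving out each library. Same-numbered samples did not deviate together, so numbers were not taken as pairs. Coordinates and exon lengths are from GENCODE vM21 (GRCm38), promoters from RefSeq (GRCm38.p6).

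Members named with values in every library are the 14 largest called exonic falls and rises, the 5 largest called intronic ones and, per role, the 2 most abundant per kb that did not pass; of the other Rab-cycle genes, the 5 smallest p per direction. Genes outside this rule were named after their values were seen. A subset of the other Rab-cycle genes is not reported here in full. Members and lists were chosen with earlier results of these data known. The authors' deposited table called 13 members lower and 20 higher in exonic counts, of which 13 and 18 were called here.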

Additional observations from a re-analysis of the deposited data

Results flagged for a closer look

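Within groups of 4 libraries, 1 library stood far from the other 3 in 6 of 90 groups of values examined for the named members, where chance flags about 1 in 20. In exonic counts, dTAG-13 replicate 1 had 77.8 CPM of Tbc1d20 while the other 3 treated libraries had 72.9 to 73.4. For Rab5c, dTAG-13 replicate 4 had 174 CPM against 189 to 192. DMSO replicate 3 had 29.1 CPM of Rabgap1l against 33.4 to 34.3 in the other controls, and DMSO replicate 4 had 50.97 CPM of Dennd4b against 48.5 to 48.8. In intronic counts, DMSO replicate 3 had 668 CPM of Rab43 against 743 to 748, and dTAG-13 replicate 1 had 38.2 CPM of Rab35 against 43.3 to 44.2. The causes were not tested.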

How the results depend on the processing

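The counts of called members kept within 1.5 times under every alternative run: 12 to 14 lower and 16 to 21 higher in exonic counts, 9 to 12 lower and 6 to 9 higher in intronic counts, and 0 for the difference between them. No named gene changed direction. With the replicate block the members counted 13 lower and 19 higher in exonic and 11 lower and 8 higher in intronic counts; same-numbered libraries had correlations of 0.0453, 0.0035, -0.0237 and 0.0231. Related pairs passing numbered 18 with 0.5 CPM added, 0 of 25 in intronic counts (10 at an unadjusted p below 0.05) and 0 with the replicate block, where no p below 0.125 was possible. When 1 library was left out, 0 to 17 pairs passed, with 0 without DMSO replicate 1, 3 or 4. Lower genes among the other Rab-cycle genes numbered 4 to 8 when 1 library was left out. Low members are limited by depth: the 25 untested ones had at most 13 exonic reads over all libraries.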
